A study of Oryza sativa with 4 samples.

Results

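The ILI and IBH1 genes of rice code for atypical helix-loop-helix proteins that act on cell elongation in the lamina joint, the collar between leaf blade and sheath that gives the leaf its angle. The genes were found by name: every probe set of the Affymetrix Rice Genome array whose single annotated gene has ILI1 to ILI7 or IBH1 as symbol or synonym was taken, with the Os prefix and letter case ignored. This gave 6 of 57258 non-control probe sets, for 4 of the 8 names: 1 probe set each for ILI2 (LOC4350872), ILI4 (LOC4340551) and ILI6 (LOC4331776), and 3 for IBH1 (LOC4337280). ILI3 (LOC4331778) and ILI5 (LOC4330725) are in the gene table, but the platform annotation used here pairs no probe set with either. No gene in that table carries the name ILI1 or ILI7, so these 4 genes were not analysed here.

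RNA came from the lamina joint of the flag leaf, a 1 cm segment, of wild-type rice and of the lc1 mutant, with 2 arrays per genotype and 4 in all. The labels name no treatment, cultivar, plant age or kind of lc1 allele, and they give the arrays of a genotype as biological replicates without saying how many plants each holds. In the literature LC1 is the gene GH3.1, whose enzyme conjugates auxin to amino acids. The GH3.1 probe set read 1.0 and 9.0 in wild type against 551.8 and 418.1 in lc1. LG1, a regulator without which rice forms no ligule or lamina joint, was above background on all 4 arrays, at 132.1 and 240.4 in wild type against 131.7 and 135.8 in lc1.

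Helix-loop-helix proteins work as pairs. A typical member binds DNA through a basic region next to the helices, whereas the ILI proteins and IBH1 lack a working basic region and act by pairing with other members. IBH1 restrains cell elongation, and ILI1 binds IBH1 and lifts that restraint, so that raised ILI1 opens the leaf angle and raised IBH1 keeps the leaf erect. Brassinosteroids, steroid hormones that bend the lamina joint, act on this pair through the transcription factor BZR1. ILI4 is also named BU1, for brassinosteroid upregulated, and its overproduction bends the lamina joint. ILI6 is also named PGL1 and is known for lengthening the grain by opposing the helix-loop-helix protein APG.

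The deposited signals were not at one level: the median signal of the probe sets tested was 68.2 for wild type 1, 73.8 for wild type 2, 88.9 for lc1 mutant 1 and 69.5 for lc1 mutant 2. Differences are therefore given after centring each array on that median, as lc1 minus wild type on the log2 scale. After centring, the median tested probe set still lay at 0.074. The floor of an array, a measure of background, is the 95th percentile of 23 control probe sets with no rice target, and was 9.02 and 11.9 for wild type and 13.8 and 12.9 for lc1. A standard error (SE) is limma's, over 2 arrays per genotype, and the number of arrays limits every value.

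In these collars 2 of the 4 measured genes, IBH1 and ILI4, were above background, and neither passed the test between the genotypes. IBH1 lay lower in lc1 by a log2 difference of -0.38 ± 0.30 (SE), and ILI4 lay higher by 0.27 ± 0.36 (SE). ILI2 and ILI6 stayed under the floor on all 4 arrays. Over the whole array limma called 20 of 34355 probe sets at a Benjamini-Hochberg adjusted p under 0.05, which is 0.0582%. Leaving out wild type 1 moved that count to 11, leaving out lc1 mutant 1 to 199 and leaving out lc1 mutant 2 to 1211. Among the 20 was a probe set whose identifier starts with RPTR, by that name a reporter control, higher in lc1 by 8.13 ± 0.64 (SE). Of the 6 probe sets of the ILI and IBH1 genes 3 passed the filter on low signals and were tested; 0 of these 3 were called, and 0 had an unadjusted limma p under 0.05, against 8.43% of all tested probe sets.

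**Figure D1:**
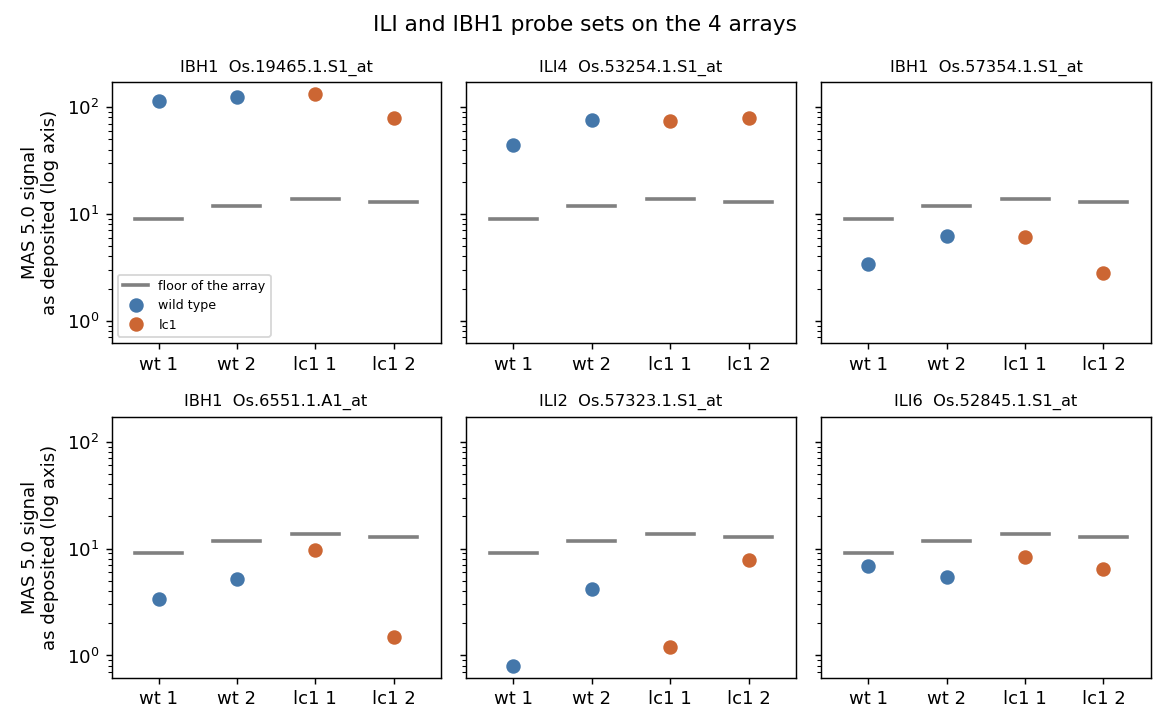
MAS 5.0 signal as deposited (log axis) of the 6 ILI and IBH1 probe sets, with 1 panel per probe set (identifier above it), 1 point per array and a grey bar at the floor of that array. The first IBH1 probe set (78.3 to 131.8) and the ILI4 probe set (43.7 to 79.2) lie above the floor on all 4 arrays, and the other 4 probe sets lie under it on all 4. Heights are not comparable between panels.

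ILI4 is the growth-promoting member that could be followed. Its signal was 43.7 on wild type 1 and 75.5 on wild type 2, against 74.5 on lc1 mutant 1 and 79.2 on lc1 mutant 2. Wild type 1 was the low array, while wild type 2 lay between the lc1 arrays. Divided by the median of its array, the ILI4 signal was 0.641 and 1.02 times the median for wild type and 0.838 and 1.14 times for lc1, so the genotypes overlap on this scale as well. The fold of lc1 over wild type was 1.21 with a 95% interval from 0.687 to 2.12, and limma gave an adjusted p of 0.855. Among all tested probe sets, 54.9% differed by as much or more in either direction. The direction rests on wild type 1: without that array the ILI4 difference was -0.066, and without wild type 2 it was 0.61. RNA from the whole collar was measured, so a change in the number of cells that express a gene cannot be told apart from a change in RNA per cell.

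IBH1, the growth-restraining member, was bright on 1 of its 3 probe sets. On this first probe set it read 113.1 on wild type 1 and 125.3 on wild type 2, against 131.8 on lc1 mutant 1 and 78.3 on lc1 mutant 2. As deposited, the lc1 arrays are the highest and the lowest of the 4. Relative to the median of each array the IBH1 signal was 1.66 and 1.70 times the median for wild type and 1.48 and 1.13 times for lc1. On that scale both lc1 arrays lie below both wild-type arrays, a separation that 40.1% of all tested probe sets show in one direction or the other. The fold of lc1 over wild type was 0.770 with a 95% interval from 0.481 to 1.23, and limma gave an adjusted p of 0.750. Without lc1 mutant 2 the IBH1 difference was -0.18, and without lc1 mutant 1 it was -0.57. A rank within the array needs no scaling: the IBH1 probe set exceeded 75.2% and 75.8% of the non-control probe sets for wild type, and 74.1% and 71.1% for lc1.

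The other IBH1 probe sets do not bear on the comparison. The second read 3.4 and 6.2 in wild type against 6.1 and 2.8 in lc1, and the third 3.4 and 5.2 against 9.8 and 1.5. All of these values are under the floor, so no fold is given. The annotation pairs all 3 probe sets with the same gene. As a measure of RNA quality, the 5' signal of a rice Gapdh control was divided by its 3' signal. This ratio was lowest on lc1 mutant 2, the array where the bright IBH1 probe set was lowest as well, at 0.138, against 0.246 on lc1 mutant 1, 0.164 on wild type 1 and 0.236 on wild type 2. A second rice Gapdh control gave 0.553 on lc1 mutant 2, 0.306 on lc1 mutant 1, 0.214 on wild type 1 and 0.566 on wild type 2, which is another order. The rice actin control gave 0.0596 on lc1 mutant 2, 0.131 on lc1 mutant 1, 0.0822 on wild type 1 and 0.100 on wild type 2, so 2 of the 3 ratios were lowest on lc1 mutant 2. Wild type 1, the low array for ILI4, was lowest on the second Gapdh ratio and second lowest on the other ratios. The part of RNA quality in the IBH1 and ILI4 values was not tested.

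ILI2 and ILI6 were at background in both genotypes. The ILI2 probe set read 0.8 and 4.2 in wild type against 1.2 and 7.8 in lc1, and was left out of the test by the filter on low signals. The ILI6 probe set read 6.9 and 5.4 against 8.3 and 6.5, which passed that filter but lay under the floor on all 4 arrays. Its limma adjusted p was 0.977, and no fold is given because neither genotype was measured above background. A transcript at these levels was not detectable with this probe set, which does not show that it is absent. ILI6 and ILI3, which has no probe set here, lie near each other in the genome, with 1 gene between them in assembly ASM3414082v1.

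IBH1 and ILI4 lay on opposite sides of 0, and their ratio within an array is free of any scaling between arrays. The ratio was chosen after the values had been seen. Its log2 value was 1.37 and 0.73 in wild type against 0.82 and -0.016 in lc1. The size of such a ratio has no meaning as a level, since the probe sets differ, but its change between arrays does. The mean log2 ratio was 1.05 ± 0.45 for wild type and 0.40 ± 0.59 for lc1 (each with its SD, n = 2), a difference of -0.65 with lc1 mutant 1 above wild type 2. A 2-sided exact permutation test over the 6 splits of the arrays gave p = 0.667, and with 2 arrays against 2 it cannot go below 0.333, so it could not have passed. The difference of the ratio ranged from -1.07 to -0.23 when 1 array was left out.

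**Figure D2:**
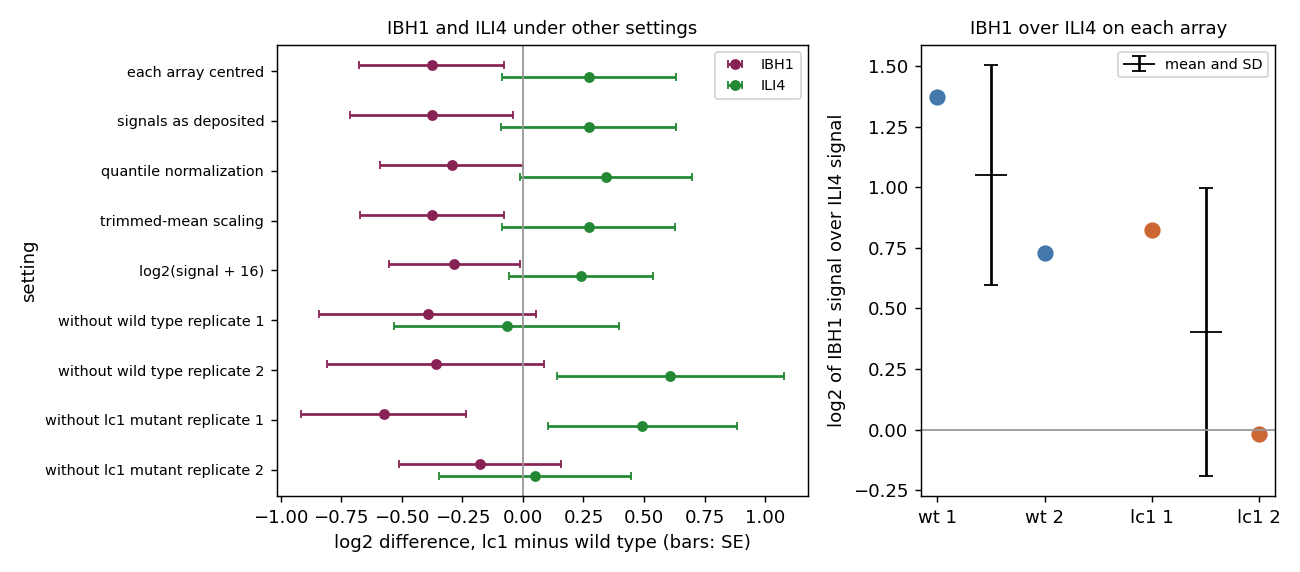
Left, the log2 difference (lc1 minus wild type) of IBH1 and ILI4 with limma's SE as bars, for centred arrays, for other scalings (each brought to the same median difference as the centred arrays) and without each array in turn. Signals as deposited and trimmed-mean scaling repeat the centred value by construction. Over the settings that can move the value IBH1 stays below 0, from -0.57 to -0.18, and ILI4 falls below 0 without wild type 1. Right, the log2 of the IBH1 signal over the ILI4 signal on each array, with mean and SD per genotype (n = 2), where the ranges of the genotypes overlap.

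With 1 probe set for each of the 4 genes, the brightest, the median log2 difference was 0.20, against 0.074 over all tested probe sets. This median includes ILI2 and ILI6, which were under the floor, and leaving out wild type 1 gave -0.23, while leaving out lc1 mutant 2 gave -0.064. No direction is read from it for the genes as a group.

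The genes whose profile over the 4 arrays lay nearest to the IBH1 probe set, among 2825 tested probe sets with a named gene, were HSP81-1 (root mean square distance 0.0476 log2 units), KOB1 (0.0497) and CIPK10 (0.0529). HSP81-1 read 166.2 and 193.3 in wild type against 197.5 and 125.6 in lc1, with the same order of arrays as IBH1. Nearest to ILI4 were DRB3 (0.0227), SNAT1 (0.0618) and MSI1 (0.0641). MSI1 read 956.3 and 1554.3 in wild type against 1507.3 and 1531.2 in lc1, low on wild type 1 like ILI4. DRB3, at 8.4 to 14.6, and SNAT1, at 8.7 to 15.9, were near the floor. With 4 arrays such likeness is a description of these arrays.

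Other helix-loop-helix genes named as partners or opponents of the ILI proteins were at or near background. BC1 (bHLH081), which joins ILI5 in a complex that bends the lamina joint, read 11.3 and 13.8 in wild type, just above the floor, and 1.0 and 7.3 in lc1, under it. The BC1 probe set was below the filter, was not tested, and allows no fold, since the floor of the lc1 arrays is about as high as its wild-type signal. BCL1 (bHLH080), a relative of BC1 by name, read 6.1 and 8.6 against 4.2 and 6.6, under the floor throughout. APG has no probe set in the annotation. Of 10 genes with a bHLH number and a probe set, BC1 and BCL1 among them, 6 were tested and 0 called by limma. Over all tested probe sets limma called 0.0582%, and 8.43% had an unadjusted p under 0.05, as did 1 of these 6 genes. That gene was bHLH063, also named IRO3, a regulator of the response to iron deficiency, at 99.6 and 140.5 in wild type against 308.2 and 200.1 in lc1. Its log2 difference was 0.92 ± 0.29 (limma adjusted p = 0.430). bHLH004 gave -0.69 ± 0.34. bHLH123, also named LAX1 and known from panicle branching, read 15.7 and 10.6 against 17.8 and 1.7, under the floor on 1 array of each genotype. The median of the 6 was -0.57, but it includes BCL1, under the floor on all 4 arrays. For the 3 genes above the floor on all 4 arrays it was 0.42.

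Brassinosteroid signalling lies upstream of ILI4 and IBH1, and most of its transcripts were well above the floor. Of 20 such genes with a probe set 18 were tested, with a median log2 difference of -0.082, 6 positive and 12 negative. Limma called 0 of the 18, and 1 had an unadjusted p under 0.05, against 8.43% of all tested probe sets. BRI1, the hormone's receptor, read 655.8 and 734.5 in wild type against 677.3 and 452.4 in lc1, a difference of -0.47 ± 0.22 (limma adjusted p = 0.611). BKI1, by name a counterpart of an inhibitor of that receptor known in Arabidopsis, gave -0.85 ± 0.40. BZR1, the factor that links the hormone to ILI1 and IBH1, read 104.4 and 74.4 against 157.3 and 121.0, a difference of 0.50 ± 0.32 (limma adjusted p = 0.691). RGA1, the G protein alpha subunit that acts upstream of ILI4 in rice, gave -0.049 ± 0.30. MADS47, a MADS-box factor that dampens brassinosteroid responses in rice, had the smallest p, with 70.0 and 49.5 against 199.7 and 103.2, a difference of 1.14 ± 0.35 (limma adjusted p = 0.418).

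Of 7 leaf angle genes, all tested, limma called 0, and 1 had an unadjusted p under 0.05, against 8.43% of all tested probe sets. The median of the 7 was -0.14, with 2 positive and 5 negative. The gene with the smallest p was DWARF (CYP85A1), an enzyme of late brassinosteroid synthesis, at 43.5 and 34.8 in wild type against 207.0 and 150.1 in lc1, a difference of 2.03 ± 0.31 (limma adjusted p = 0.0775). DWARF did pass limma when lc1 mutant 1 was left out (adjusted p = 0.0213) or lc1 mutant 2 (adjusted p = 0.00562), fits in which the remaining lc1 array is assumed to vary like the wild type. It did not pass when wild type 1 was left out (adjusted p = 0.307) or wild type 2 (adjusted p = 0.344). LG1 gave -0.56 ± 0.34, with wild type 1 close to the lc1 arrays, and TAC1, which opens the tiller angle, read 11.6 and 16.6 against 8.9 and 8.2, with both lc1 arrays under the floor. ILI4, which brassinosteroid raises in rice, differed by 0.27 ± 0.36 on the same arrays, and the gap between DWARF and ILI4 was not tested.

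**Figure D3:**
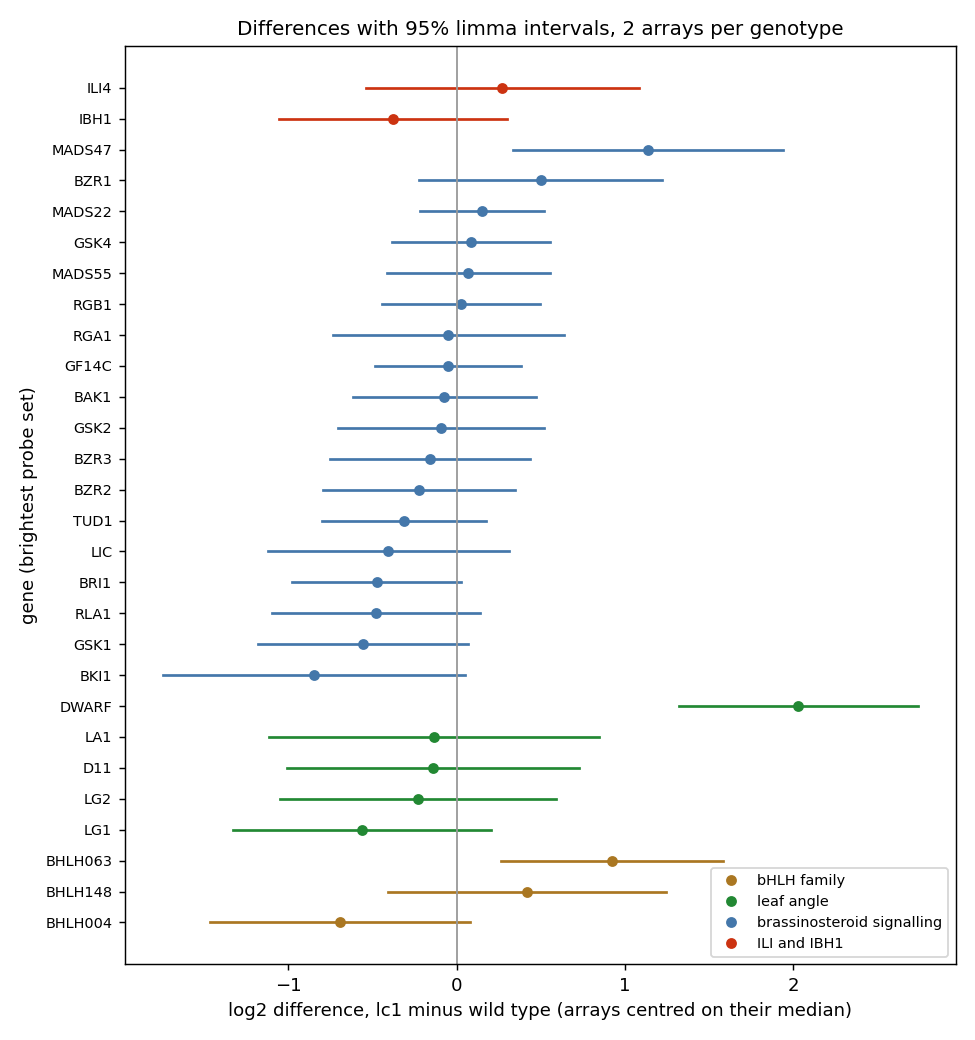
Log2 difference (lc1 minus wild type, arrays centred on their median) of IBH1, ILI4 and the tested genes of 3 lists that were above the floor on all 4 arrays, 28 genes in all, with 95% limma intervals before any adjustment. The intervals of IBH1 and ILI4 include 0, and 3 of the 28 exclude it: DWARF, MADS47 and bHLH063.

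Markers of other tissues were compared as well. Of 3 green blade genes with a probe set, CAB2R and RCA, of light harvesting and carbon fixation, were bright, and RBCS1 was under the floor on all 4 arrays. Summed over the list, their signals as deposited were 6461.4 and 8868.2 in wild type against 10639.1 and 9779.9 in lc1. These sums carry the difference in level between arrays. After centring, CAB2R gave 0.17 ± 0.14 (limma adjusted p = 0.763) and RCA gave 0.51 ± 0.21 (limma adjusted p = 0.569). Limma called 0 of these 2 tested genes, and 1, RCA, had an unadjusted p under 0.05, against 8.43% of all tested probe sets. Of 7 anther and tapetum genes 2 were under the floor on all 4 arrays, and 0 of the 3 tested were called by limma, with 0 at an unadjusted p under 0.05. Summed over the 7 genes, the signals as deposited were 255.9 and 267.6 in wild type against 291.2 and 302.4 in lc1, most of it from MSP1. These sums carry the level of the arrays as well, and after centring MSP1 gave -0.065 ± 0.27 (limma adjusted p = 0.963). The part of blade tissue in the values of IBH1 and ILI4 was not tested.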

How the data were processed

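Total RNA was hybridised as biotin-labelled copy RNA, and the authors deposited linear intensity values, which are signals of the Affymetrix Microarray Suite (version 5.0) per the series' design text. R 1.8.0 is in the submitters' processing notes. The authors' detection calls, Wilcoxon change call and MAANOVA model were not used here. Of 57381 probe sets 123 controls were left out, those whose identifier starts with AFFX. Probe sets whose identifier starts with RPTR, by that name reporter controls, were not left out and are counted as non-control. Signals were put on a log2 scale (18 values of 0 set to 0.05), and 34355 probe sets were tested, those whose mean log2 signal reached the 40th percentile, equal to a signal of 5.96. Each array was centred on its median over these probe sets, because an uncentred test would carry the difference in level between arrays. The test was limma 3.58.1 in R 4.3.3 (lmFit, and eBayes with an intensity trend), on genotype alone, which leaves 2 residual degrees of freedom, with 2-sided p-values adjusted by Benjamini-Hochberg over all tested probe sets at a threshold of 0.05. It was checked on simulated data. At most 1.64% of signals were identical between arrays. If arrays of a genotype shared plants, p-values would measure technical spread.

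Names came from the platform annotation (22436 probe sets with 1 gene, 95 with several, 34727 with none) and, for all of these 22436, from the gene table of assembly ASM3414082v1. The members and lists were chosen with earlier results of these data known. The rule for named genes took every ILI and IBH1 probe set, the 3 genes of a list with the smallest p and any gene called, and the 3 profiles nearest to each of the 2 brightest members. RGA1, BZR1, RCA and the partners of the ILI proteins were added for their role. The lists hold names found in the gene table. LPA1 was left out of the leaf angle list, since that name belongs to a low phytic acid gene there. Each listed gene was represented by its brightest probe set. No table of sequences was used.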

Additional observations from a re-analysis of the deposited data

How the results depend on the processing

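Over 11 alternatives limma called neither ILI4 nor the bright IBH1 probe set. Of these, 5 leave the estimate as it is by construction. For signals as deposited and trimmed-mean scaling this holds because each scaling was brought to the median difference of the centred arrays. Limma's calls were made without that shift. Over the 6 that can move the estimate, IBH1 lay from -0.57 to -0.18, and ILI4 changed sign in 1, at -0.066 without wild type 1 (-0.066 to 0.61 without 1 array). The median over the 4 genes ranged from -0.23 to 0.31 without 1 array and was -0.081 over all 6 probe sets. Probe sets under the floor on all arrays have no difference to compare. The count of called probe sets, 20 in the main setting, was 1 as deposited (median probe set at 0.22), 4 under quantile normalization, 8 under trimmed-mean scaling, 52 with log2(signal + 16), 0 with a common variance prior in limma (2439 at an unadjusted p under 0.05), 4 without the filter, and 11 to 1211 without 1 array. The replicate block, which pairs arrays by the number in their titles and leaves 1 residual degree of freedom, called 658. The deviations of same-numbered arrays correlated at -0.036 over probe sets, so the number is not shown to pair them. The block and leaving out either lc1 array called 1 leaf angle gene, DWARF (0 to 1 without 1 array). The causes were not tested. The split of calls was 16 higher and 4 lower, 1 and 0 as deposited, 4 and 0 under quantile normalization, 7 and 1 under trimmed-mean scaling and 487 and 171 with the block, and it turned to 87 and 112 without lc1 mutant 1.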
